A study of Mus musculus with 6 samples.

Results

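The phagocyte NADPH oxidase and the Fcγ receptors were followed as 9 genes in bulk RNA from CT26.WT tumors, with and without injected IFN-γ. The members were taken by symbol from the count table and all 9 were found, among 55487 genes listed. They were the oxidase subunits Cybb, Cyba, Ncf1 and Ncf4, the receptors Fcgr1, Fcgr2b, Fcgr3 and Fcgr4, and the receptor signaling chain Fcer1g. Each member passed the filter on low counts, as did 15114 genes in all. They were chosen with earlier results of these data known, by a rule that uses symbols alone.

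The 6 tumors, numbered here 1 to 3 in each group, grew from subcutaneous implants of CT26.WT, a colon carcinoma line of BALB/c mice, in wild-type BALB/c hosts. The male mice were 4 weeks old at purchase and immunocompetent. In the IFN-γ group (n = 3 tumors), 100 µL of mouse IFN-γ at 100 ng/ml went into the tail vein every 48 h, and the control group (n = 3 tumors) received PBS the same way. All tumors came from 1 cell line, and the study's groups held 6 mice each, with the mouse behind each sequenced tumor not given in the sources used here, so p-values measure the spread between these tumors. Whole tumor tissue holds the carcinoma cells and the cells of the host together. Fewer cells of a type and less RNA per cell therefore cannot be told apart in any value given here. The 7 colon epithelial markers listed were uneven. Cdx2 had 0 counts in every tumor, Vil1 stayed at or under 0.286 CPM and Epcam at or under 0.928 CPM. Cdh1 ran from 1.28 to 2.46 CPM, Krt18 from 6.41 to 10.4 CPM and Krt8 from 0.186 to 12.1 CPM, while Krt20 ran from 113 to 271 CPM.

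Phagocytes destroy what they take up partly with superoxide, which the NADPH oxidase makes by passing electrons from NADPH across the phagosome membrane to oxygen. Cybb is the catalytic membrane subunit and Cyba its membrane partner, while Ncf1 and Ncf4 wait in the cytosol and join them when the cell is activated. Fcγ receptors bind the constant part of IgG on coated targets, and engagement of the activating receptors Fcgr1, Fcgr3 and Fcgr4 through the shared chain Fcer1g starts phagocytosis and turns the oxidase on, whereas Fcgr2b carries an inhibitory motif and restrains them. IFN-γ is long known as an activator of macrophages, in which it raises oxidase and Fcγ receptor genes.

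The 9 genes lie at 6 places in the mouse genome (GRCm38, GENCODE M21 gene models, all protein-coding). On chromosome 1, 4 of them sit close together, namely Fcgr2b (ENSMUSG00000026656, chr1:170958617-170976547, minus strand), Fcgr4 (ENSMUSG00000059089, chr1:171018920-171029761, plus strand), Fcgr3 (ENSMUSG00000059498, chr1:171051174-171064935, minus strand) and Fcer1g (ENSMUSG00000058715, chr1:171229572-171234365, minus strand). Fcgr1 is on chromosome 3 (ENSMUSG00000015947, chr3:96282909-96293969, minus strand). The oxidase genes are scattered, with Ncf1 on chromosome 5 (ENSMUSG00000015950, chr5:134220053-134229625, minus strand), Cyba on chromosome 8 (ENSMUSG00000006519, chr8:122424776-122432930, minus strand), Ncf4 on chromosome 15 (ENSMUSG00000071715, chr15:78244801-78262580, plus strand) and Cybb on chromosome X (ENSMUSG00000015340, chrX:9435252-9487771, minus strand).

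Fcgr2b and Fcgr3 have opposite roles but share coding sequence, which matters for reads that could be counted on either. Of the 50-base windows of the longest coding transcript of Fcgr3, 12.8% (166 of 1298) also occurred in an Fcgr2b transcript, and with 100-base windows the share was 3.53%. The longest identical coding stretch was 129 bases long. It covers coding bases 278 to 406 of 1020 in Fcgr2b and 263 to 391 of 801 in Fcgr3, in 2 exons of each gene, and it is shown because it marks where a read cannot separate the inhibitory from the activating receptor.
Fcgr2b and Fcgr3, shared coding stretch: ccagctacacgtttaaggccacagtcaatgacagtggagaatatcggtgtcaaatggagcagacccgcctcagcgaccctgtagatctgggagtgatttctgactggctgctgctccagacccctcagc
In a window around this stretch, coding bases 16 to 706 of Fcgr2b were lined up with Fcgr3 without gaps. Of these 691 bases, 543 (78.6%) were identical. In Fcgr2b, 12.5% of the 50-base windows (436 of 3495) occurred in another gene, 166 of them in Fcgr3. In Ncf1, 8.15% of them (231 of 2833) did so, mostly in Gtf2ird2, whose exons overlap 408 exon bases of Ncf1 on the other strand. The remaining 6 members shared no 50-base window with another gene. How reads with more than 1 possible gene were counted is not given in the sources used here, so values of Fcgr2b, Fcgr3 and Ncf1 are less certain than the rest. Gtf2ird2 itself had 340, 462 and 417 counts in the control tumors and 422, 403 and 392 in the IFN-γ tumors. An antisense gene overlapping Fcgr2b, Gm38204, had 0 counts in every tumor.

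Promoter windows were read for 8 of the 9 members from RefSeq (GRCm38.p6, C57BL/6J), from 250 bases before to 50 after the start site, and Ncf4 had none. The windows follow RefSeq's start sites, which need not be those of the GENCODE models. The windows were searched on both strands for the IFN-γ activated site TTCNNNGAA, the interferon-stimulated response element core of GAAA, any 2 bases and again GAAA, bound by IRF proteins, and the core GAGGAA of PU.1, the myeloid factor encoded by Spi1. The windows of 4 members that hold interferon motifs are printed below, with that of Fcgr2b, which holds none of the 3, for comparison. Capitals mark the matches on either strand.
Fcgr4, chr1:171018676-171018975, plus strand: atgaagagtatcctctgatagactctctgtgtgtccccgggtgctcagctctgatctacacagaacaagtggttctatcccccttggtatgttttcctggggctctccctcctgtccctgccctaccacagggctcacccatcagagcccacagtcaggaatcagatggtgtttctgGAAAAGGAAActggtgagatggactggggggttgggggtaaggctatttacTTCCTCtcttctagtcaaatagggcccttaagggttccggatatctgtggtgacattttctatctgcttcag
Cybb, chrX:9469275-9469574, minus strand: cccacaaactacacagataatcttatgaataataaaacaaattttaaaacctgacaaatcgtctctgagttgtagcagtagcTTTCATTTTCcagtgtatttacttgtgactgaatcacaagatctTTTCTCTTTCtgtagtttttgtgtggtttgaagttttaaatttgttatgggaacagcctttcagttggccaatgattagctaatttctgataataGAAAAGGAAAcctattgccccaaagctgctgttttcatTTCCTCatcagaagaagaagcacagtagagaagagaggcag
Fcgr1, chr3:96293920-96294219, minus strand: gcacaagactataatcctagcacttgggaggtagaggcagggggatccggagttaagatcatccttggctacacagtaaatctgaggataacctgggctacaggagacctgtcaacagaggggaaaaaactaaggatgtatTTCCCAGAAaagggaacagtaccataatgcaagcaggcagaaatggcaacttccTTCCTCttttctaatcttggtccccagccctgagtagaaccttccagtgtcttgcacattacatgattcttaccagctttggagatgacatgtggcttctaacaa
Ncf1, chr5:134229576-134229875, minus strand: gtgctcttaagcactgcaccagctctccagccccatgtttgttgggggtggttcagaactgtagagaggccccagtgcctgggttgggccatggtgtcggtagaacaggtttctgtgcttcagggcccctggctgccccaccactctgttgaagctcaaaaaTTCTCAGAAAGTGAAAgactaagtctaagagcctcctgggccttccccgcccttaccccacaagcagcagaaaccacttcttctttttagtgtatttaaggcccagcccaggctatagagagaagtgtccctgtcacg
Fcgr2b, chr1:170976022-170976321, minus strand: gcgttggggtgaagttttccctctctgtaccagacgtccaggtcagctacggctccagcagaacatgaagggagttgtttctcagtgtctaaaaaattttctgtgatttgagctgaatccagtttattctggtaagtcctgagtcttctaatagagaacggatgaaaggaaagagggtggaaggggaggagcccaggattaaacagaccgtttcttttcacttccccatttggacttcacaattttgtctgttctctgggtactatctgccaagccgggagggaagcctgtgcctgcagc
The response element core was found in 3 of the 8 members, against 3.45% of 32544 mouse promoter windows of the same length. Fcgr4 held 1 match that begins 73 bases before the start site (position -73), Ncf1 held 1 at -82, and Cybb held 3, at -168, -124 and -29. The activated site was found in 2 of the 8 members, Fcgr1 at -109 and Ncf1 at -88, against 8.33% of all windows. In Ncf1 the activated site and the response element core share bases, so the capitals there form 1 run. The PU.1 core was in 4 of the 8, against 28.1% of all windows, at -22 in Fcgr4, -55 in Fcgr1 and 10 in Cybb, and in both windows given for Fcgr3. Fcgr2b, Fcer1g and Cyba had none of these letters in their windows. A match describes these letters and does not show binding in the tumors.

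Sequencing depth was even, from 15759300 to 17559680 counts on genes per tumor. A level of 0.171 to 0.190 CPM could still be missed with a count of 0, where only counting error is covered. That floor is 3 counts per library total without TMM scaling. All other CPM given here are counts set per library total after TMM scaling. IFN-γ tumor 3 stood apart from the other IFN-γ tumors. Over the full set of 6, edgeR's quasi-likelihood test called 12 genes higher with IFN-γ and 5 lower (Benjamini-Hochberg adjusted threshold 0.05), with 1539 at an unadjusted p under 0.05. Without IFN-γ tumor 3 it called 381 higher and 112 lower among 15487 tested. Results are accordingly given for all 6 tumors and, beside them, for the 5 without that tumor. The tumor was set apart by these same counts, so p-values over the 5 depend on that choice. They describe the 5 tumors and are not separate support for a difference.

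The members were well expressed, at 661 to 4566 counts per tumor. Compared per length of merged exons, as RPKM, Cyba was the most abundant in the control group at 107 ± 9.53 RPKM (SD, n = 3). Fcer1g followed at 52.4 ± 2.38 RPKM, then Fcgr4 at 46.0 ± 11.2 RPKM and Fcgr3 at 43.4 ± 2.97 RPKM. The inhibitory receptor Fcgr2b stood at 34.7 ± 3.25 RPKM and the high-affinity receptor Fcgr1 at 29.1 ± 3.90 RPKM. Ncf4 (24.4 ± 2.14 RPKM), Cybb (21.1 ± 3.88 RPKM) and Ncf1 (14.3 ± 2.43 RPKM) were the lowest of the 9. The ranges over the 3 control tumors overlapped for the neighbors Fcer1g and Fcgr4, Fcgr4 and Fcgr3, Fcgr2b and Fcgr1, and Ncf4 and Cybb. Within a tumor, Fcgr2b was above Fcgr1, and Ncf4 above Cybb, in 3 of 3 controls. Fcer1g was above Fcgr4, and Fcgr4 above Fcgr3, in only 2 of 3, so the order of Fcer1g, Fcgr4 and Fcgr3 is not fixed. In the IFN-γ group Fcgr4 had the next-highest mean after Cyba (146 ± 14.4 RPKM), at 99.7 ± 31.3 RPKM, and Fcer1g was at 77.8 ± 15.2 RPKM. The levels depend on the length used, as the longest coding transcript gave 59.9 RPKM for Fcgr2b as a mean over the 6 tumors, against 36.7 RPKM with merged exons.

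**Figure D1:**
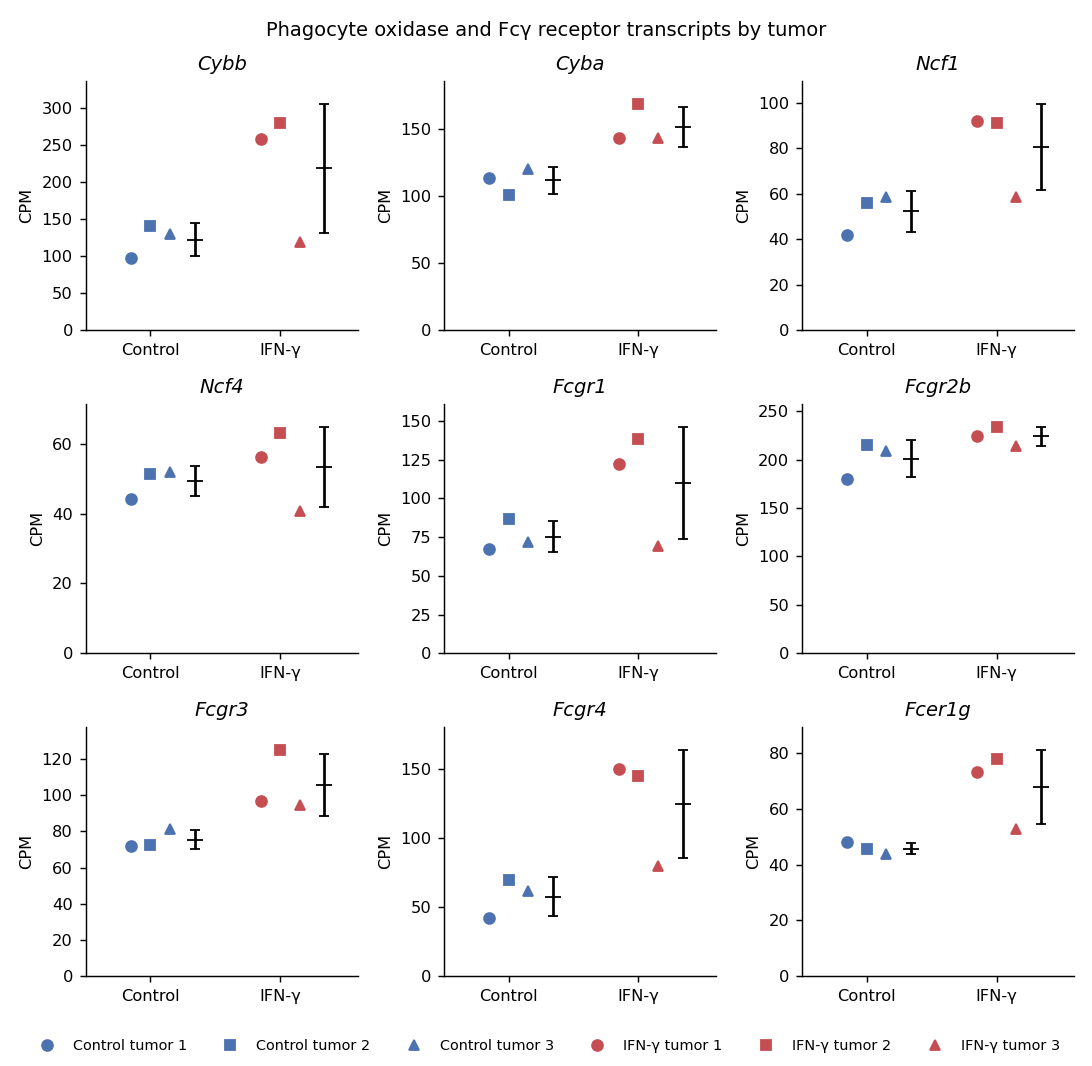
CPM of the 9 members in each tumor, with 1 panel per gene, the control group in blue and the IFN-γ group in red, and the group mean ± SD (n = 3) as a black bar. IFN-γ tumors 1 and 2 lie above every control tumor in all 9 panels, while IFN-γ tumor 3 lies among or close to the controls for most genes and below them for Ncf4.

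Transcripts of the oxidase and of the activating Fcγ receptors were more abundant in IFN-γ tumors 1 and 2 than in any control tumor, with Fcgr4 and Cybb furthest apart, and IFN-γ tumor 3 did not follow for several of them. IFN-γ tumors 1 and 2 were above every control for 9 of the 9 members, as they were for 18.1% of all genes tested. All 3 IFN-γ tumors were above every control for 5 of the 9, namely Cyba, Ncf1, Fcgr3, Fcgr4 and Fcer1g, against 7.62% of all genes. With all 6 tumors, 0 of the 9 members passed the adjusted threshold in edgeR, where 0.0794% of all genes were called higher. At an unadjusted p under 0.05, 7 of the 9 were higher, against 5.74% of all genes, and DESeq2 called 3 of the 9 higher (Cyba, Fcgr3 and Fcer1g), against 0.753%. With no filter on low counts, edgeR called 6 of the 9 higher (all but Ncf4, Fcgr1 and Fcgr2b), against 0.558%. Without IFN-γ tumor 3, edgeR called 7 of the 9 higher, against 2.46% of all genes, and Ncf4 and Fcgr2b were the members that did not pass. Over the members the median log2 fold change came to 0.55 in all 6 tumors and 0.71 in the 5, and the median over all genes tested was 0.0015 and -0.016.

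Among the membrane subunits, Cybb, the catalytic subunit, had the larger difference. Cybb was at 97.0, 140 and 130 CPM in control tumors 1, 2 and 3, and 258, 279 and 119 CPM in IFN-γ tumors 1, 2 and 3. The third IFN-γ tumor fell inside the control range, so the groups overlapped. On the log2 scale Cybb differed by 0.83 ± 0.29 (± is the standard error for each log2 difference between groups; edgeR, adjusted p = 0.389) over all 6 tumors, and by 1.12 ± 0.14 (edgeR, adjusted p = 0.0105) over the 5. Cyba, its partner, was at 114, 101 and 121 CPM in the control tumors and 143, 169 and 143 CPM in the IFN-γ tumors. Here the groups did not overlap and IFN-γ tumor 3 was as high as IFN-γ tumor 1. The log2 difference of Cyba was smaller but hardly depended on that tumor, at 0.44 ± 0.098 (edgeR, adjusted p = 0.222) and 0.47 ± 0.10 (edgeR, adjusted p = 0.0457). The Cybb to Cyba log2 ratio was 0.118 ± 0.348 for the controls and 0.434 ± 0.610 with IFN-γ (SD, n = 3 each), and the difference was within the spread (two-sided exact permutation test, p = 0.6). It ran from 0.11 without IFN-γ tumor 1 to 0.67 without IFN-γ tumor 3, and was 0.14 without control tumor 1, 0.49 without control tumor 2 and 0.17 without IFN-γ tumor 2.

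The cytosolic subunits Ncf1 and Ncf4 had different patterns. Ncf1, the organizer that docks the cytosolic complex on the membrane, was at 42.1, 56.2 and 58.6 CPM in the control tumors and 92.1, 91.1 and 58.7 CPM in the IFN-γ tumors. The groups were separated only by the gap of 58.6 to 58.7 CPM that IFN-γ tumor 3 left. Ncf1 differed by 0.62 ± 0.19 on the log2 scale (edgeR, adjusted p = 0.349) over all 6 tumors, and by 0.80 ± 0.13 (edgeR, adjusted p = 0.0205) over the 5. Ncf4, which binds a phosphoinositide of the phagosome membrane, was at 44.3, 51.5 and 52.0 CPM in the control tumors and 56.3, 63.2 and 40.9 CPM in the IFN-γ tumors. IFN-γ tumors 1 and 2 were above the controls and IFN-γ tumor 3 was below them all. Its log2 difference was 0.12 ± 0.15 (edgeR, adjusted p = 0.849) and 0.27 ± 0.099 (edgeR, adjusted p = 0.218), and it was -0.021 when IFN-γ tumor 2 was left out. The log2 ratio of Ncf1 to Ncf4 within a tumor was -0.072, 0.124 and 0.170 in the control group and 0.704, 0.523 and 0.516 in the IFN-γ group, IFN-γ tumor 3 included. These ranges did not overlap, and the difference of 0.51 gave p = 0.1, the smallest value 3 tumors against 3 allow (two-sided exact permutation test, adjusted p = 0.233 over 14 ratios).

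Among the activating receptors, Fcgr4, which binds some IgG subclasses of the mouse on monocytes, macrophages and neutrophils, had the highest fold change of the 9 members in both fits. It was at 42.1, 69.6 and 61.7 CPM in the control tumors and 151, 145 and 80.0 CPM in the IFN-γ tumors, and every IFN-γ tumor was above every control. The mean was 57.8 ± 14.1 CPM for the controls and 125 ± 39.3 CPM with IFN-γ (SD, n = 3 each), a ratio of 2.17. On the log2 scale this was 1.11 ± 0.26 (edgeR, adjusted p = 0.230) over all 6 tumors and 1.34 ± 0.17 (edgeR, adjusted p = 0.0110) over the 5. Fcgr1, the high-affinity receptor, was at 67.3, 86.7 and 72.1 CPM in the control tumors and 122, 139 and 69.1 CPM in the IFN-γ tumors. As for Cybb, IFN-γ tumor 3 lay within the control range. Fcgr1 differed by 0.55 ± 0.23 (edgeR, adjusted p = 0.469) and 0.78 ± 0.11 (edgeR, adjusted p = 0.0158) on the log2 scale.

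Fcgr3, the low-affinity activating receptor, was at 72.1, 72.7 and 81.3 CPM in the control tumors and 96.8, 125 and 94.6 CPM in the IFN-γ tumors. The groups did not overlap, and IFN-γ tumors 1 and 3 were nearly equal. The log2 difference of Fcgr3 was 0.485 ± 0.12 over all 6 tumors (edgeR, adjusted p = 0.256) and 0.55 ± 0.11 over the 5 (edgeR, adjusted p = 0.0399). Fcer1g, the chain through which these 3 receptors signal, was at 48.02, 45.5 and 43.9 CPM in the control tumors and 73.4, 77.8 and 52.8 CPM in the IFN-γ tumors. Its controls lay close together and every IFN-γ tumor was above them. Fcer1g differed by 0.57 ± 0.14 over all 6 tumors (edgeR, adjusted p = 0.257) and by 0.71 ± 0.079 over the 5 (edgeR, adjusted p = 0.00935), on the log2 scale.

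Fcgr2b, the inhibitory receptor, differed least among the receptors. It was at 180, 215 and 209 CPM in the control tumors and 224, 234 and 214 CPM in the IFN-γ tumors, so IFN-γ tumor 3 lay just under control tumor 2. Fcgr2b differed by 0.16 ± 0.088 on the log2 scale over all 6 tumors (edgeR, adjusted p = 0.602) and by 0.18 ± 0.093 over the 5 (edgeR, adjusted p = 0.398). Set against Fcgr2b in the same tumor, Fcgr4 had a log2 ratio of -2.08, -1.62 and -1.75 in the control group and -0.574, -0.686 and -1.41 in the IFN-γ group. Fcgr3 had a log2 ratio to Fcgr2b of -1.41 ± 0.130 for the controls and -1.09 ± 0.170 with IFN-γ (SD, n = 3 each). Neither ratio overlapped between groups, with differences of 0.92 for Fcgr4 and 0.31 for Fcgr3, and each gave the smallest possible p of 0.1 (two-sided exact permutation test, adjusted p = 0.233 over 14 ratios). The ratio of Fcgr1 to Fcgr2b differed by 0.33 and overlapped, since IFN-γ tumor 3 had the lowest value of all, -1.62 (two-sided exact permutation test, p = 0.4), and leaving out 1 tumor gave differences from 0.17 (IFN-γ tumor 2 left out) to 0.60 (the third left out).

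**Figure D2:**
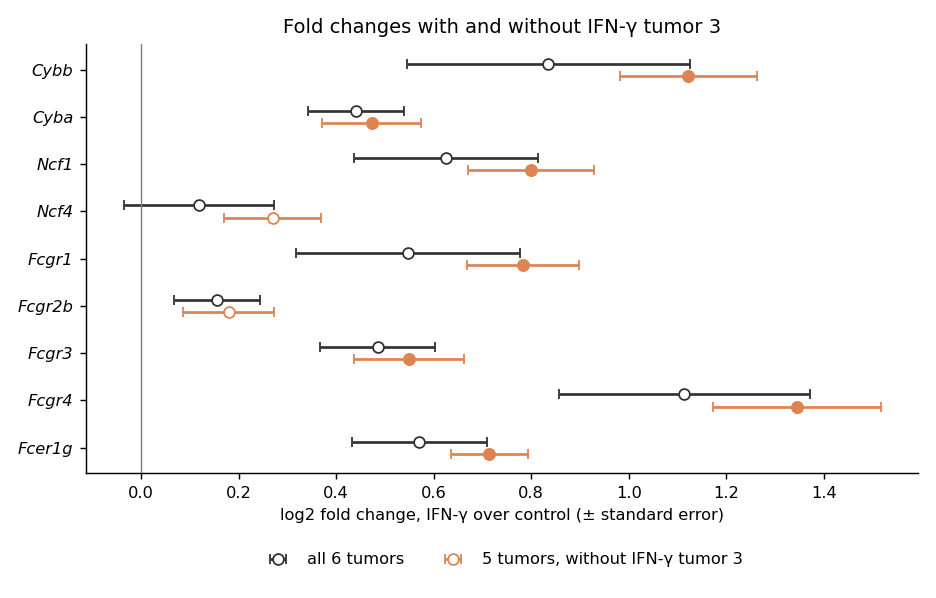
Log2 fold change of each member, IFN-γ over control, with its standard error, from all 6 tumors (dark) and from the 5 tumors without IFN-γ tumor 3 (orange), where filled points passed the adjusted threshold in edgeR. In the 5 tumors, 7 points are filled, and in the 6 tumors none is, although every estimate is above 0.

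Tumor by tumor, the members had IFN-γ tumors 1 and 2 highest in common and differed in the order of the other tumors. Relative to the control mean on the log2(CPM + 0.5) scale, the median of the 9 members was -0.15, 0.099 and 0.11 in control tumors 1, 2 and 3, 0.68 and 0.76 in the first pair of IFN-γ tumors, and 0.18 in IFN-γ tumor 3. In that last tumor the members split. Fcgr4 (0.50), Cyba (0.36), Fcgr3 (0.33), Fcer1g (0.20), Ncf1 (0.18) and Fcgr2b (0.093) were above the control mean, and Cybb (-0.027), Fcgr1 (-0.12) and Ncf4 (-0.26) were below it. Over the 6 tumors, the correlation between pairs of members ran from 0.407 for Cyba and Ncf4 to 0.986 for Ncf1 and Fcgr4 (Pearson, log2 CPM), a description of 6 libraries from 2 groups.

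**Figure D3:**
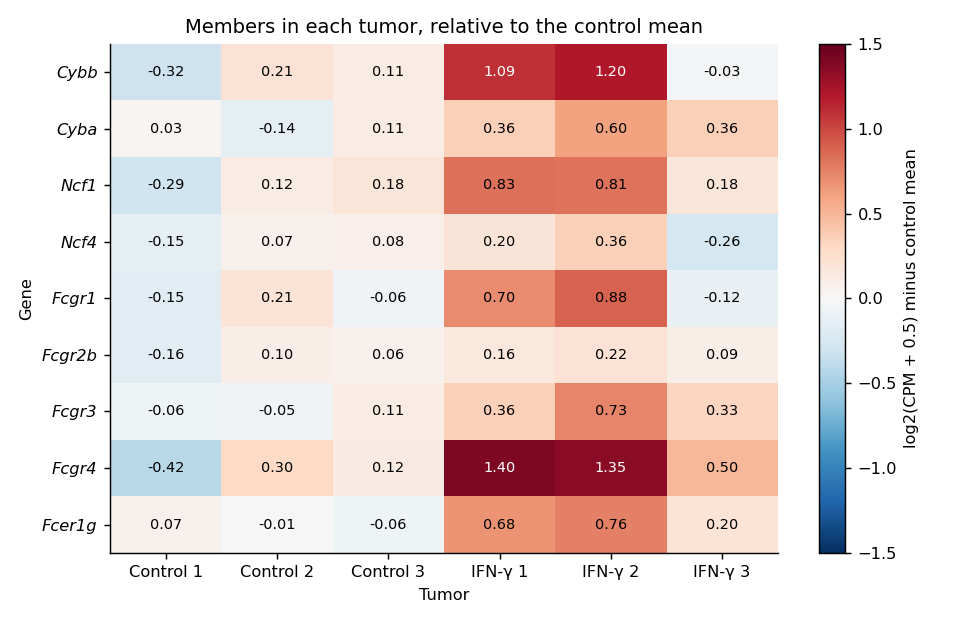
Log2(CPM + 0.5) of each member in each tumor minus the mean of the 3 control tumors, in color from blue (lower) to red (higher) with the value printed. The columns of IFN-γ tumors 1 and 2 are above 0 for all 9 members, and that of IFN-γ tumor 3 runs from -0.26 for Ncf4 to 0.50 for Fcgr4.

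Of 10 macrophage markers, 9 had a positive log2 fold change over the 6 tumors, as did 7623 of the 15114 genes tested, with a median of 0.49, and 0 passed the threshold in edgeR. The tenth, Mrc1, a mannose receptor, was lower in every IFN-γ tumor than in any control, at 433, 391 and 407 CPM in the control tumors and 368, 369 and 322 CPM with IFN-γ, and did not pass in either fit. In the 5 tumors, 7 of the 10 passed, against 2.46% of all genes called higher, with a median of 0.62. Their summed level was 3663 to 4364 CPM in the control tumors, 5550 and 6717 CPM with IFN-γ in tumors 1 and 2, and 4057 CPM in IFN-γ tumor 3, and none of the 10 was at 0 in any tumor. The part of macrophage content in the members' differences was not tested, and each member was instead set against the mean log2 level of these markers in the same tumor. On that scale Fcgr4 was at -2.12, -1.60 and -1.71 in the control tumors and -0.884, -1.09 and -1.34 with IFN-γ, a difference of 0.71 with no overlap. Ncf4 was at -2.05, -2.04 and -1.95 in the control tumors and -2.29, -2.28 and -2.30 in the IFN-γ tumors, lower by 0.28 with no overlap. Ncf1 differed by 0.23 and its groups came to within rounding of each other at -1.78. Each of these 3 gave the smallest possible p of 0.1 (two-sided exact permutation test, adjusted p = 0.233 over 14 ratios). The separation depended on the base for Fcgr4 and Ncf1. With Tyrobp, an adaptor of myeloid cells, in place of the 10 markers the difference was 0.58 for Fcgr4 (exact permutation test, p = 0.2) and 0.098 for Ncf1 (p = 0.5), and that of Ncf4 was -0.41 (p = 0.1). The difference of Ncf1 was 0.14 without control tumor 1.

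The other 6 members overlapped between groups once set against the 10 macrophage markers. The differences were 0.38 for Cybb, 0.17 for Fcer1g, 0.11 for Fcgr1, 0.095 for Fcgr3, 0.061 for Cyba and -0.22 for Fcgr2b, with p from 0.3 to 0.9 (two-sided exact permutation tests). For Cyba, Fcgr1 and Fcgr3 the sign of that difference changed when Tyrobp stood in for the marker list. Fcer1g was separated with Csf1r, Adgre1 and Cd68 alone as the base (0.24, exact permutation test, p = 0.1) and not with Tyrobp (0.039, p = 0.9). Without IFN-γ tumor 3, the difference of Cybb was 0.59 and that of Fcgr4 was 0.82.

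**Figure D4:**
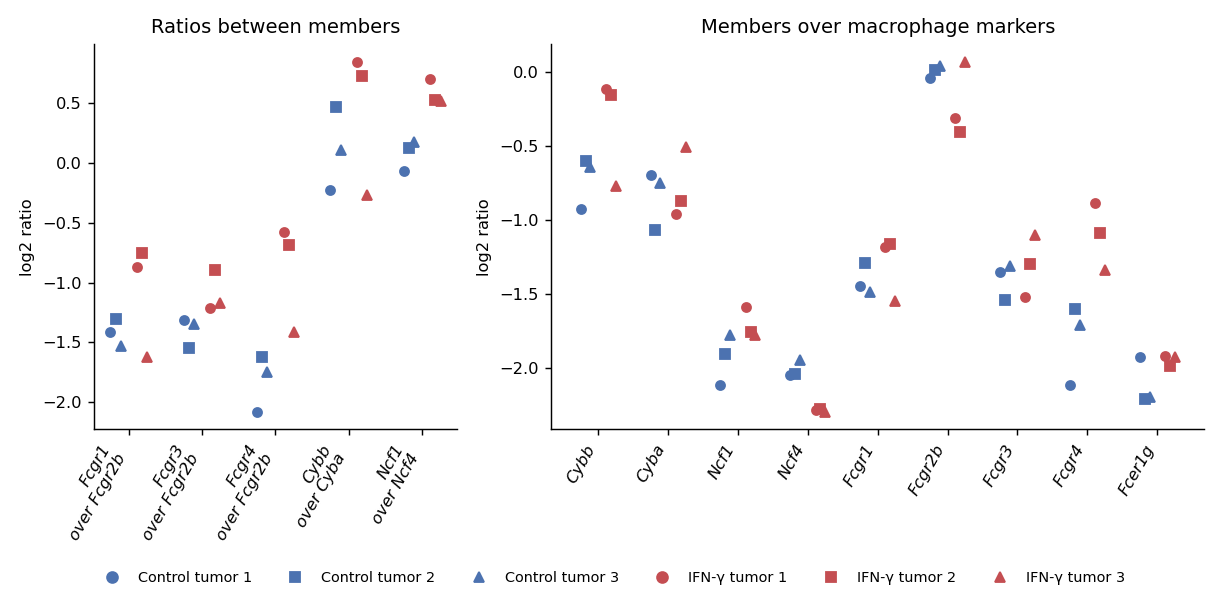
Log2 ratios per tumor, control tumors in blue and IFN-γ tumors in red, between pairs of members (left) and of each member over the mean of 10 macrophage markers (right), on log2(CPM + 0.5). The groups do not overlap for Fcgr3 and Fcgr4 over Fcgr2b, for Ncf1 over Ncf4, and for Ncf1, Ncf4 and Fcgr4 over the markers.

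Other cells that carry these genes were measured too. Neutrophils are rich in the oxidase, and of 8 neutrophil markers only 4 passed the filter on low counts, with a sum of 29.0 to 40.8 CPM in the control tumors and 36.5 to 47.5 CPM in the IFN-γ tumors. Ly6g, the defining surface marker, did not exceed 0.188 CPM and had 0 counts in 3 tumors. Csf3r, the receptor for granulocyte colony-stimulating factor, carried most of the sum at 21.3 to 38.8 CPM. Its log2 difference was 0.56 over the 6 tumors (edgeR, adjusted p = 0.371) and 0.74 over the 5 (edgeR, adjusted p = 0.0143). In the fit of the 5 tumors, 5 neutrophil markers were tested, 2 had a positive log2 fold change, and the median was -0.17. Below 0 there were S100a8 (-0.17), S100a9 (-0.63) and Retnlg (-1.67), none past the threshold. Mast cells use Fcer1g and Fcgr3, and their 5 markers were abundant, at 302 to 424 CPM in the control tumors and 335 to 416 CPM in the IFN-γ tumors, with 0 genes past the threshold in edgeR in either fit. B cells carry Fcgr2b, and their 5 markers summed to 8.00 to 12.5 CPM in the control tumors and 6.56 to 8.00 CPM in the IFN-γ tumors. Markers of monocytes summed to 257 to 363 CPM in the control tumors and 524 to 607 CPM in IFN-γ tumors 1 and 2, against 288 CPM in IFN-γ tumor 3. The sum of the dendritic cell markers (25.0 to 36.5 CPM in the control tumors, 48.5 and 49.1 CPM in IFN-γ tumors 1 and 2, 29.6 CPM in IFN-γ tumor 3) was also highest in IFN-γ tumors 1 and 2. Xcr1 and Clec9a followed that sum, and Flt3 was nearly equal in the 3 IFN-γ tumors. Zbtb46, Siglech and Ccr7 did not follow it, as each had a control tumor above IFN-γ tumor 1. NK cells carry Fcgr3 and Fcer1g, and their 5 markers summed to 12.8 to 23.4 CPM in the control tumors, from 23.8 to 31.7 CPM in the first pair of IFN-γ tumors, and 8.66 CPM in the third. T cell markers summed to 25.6 to 37.3 CPM in the control tumors, from 48.5 to 62.9 CPM in the first pair of IFN-γ tumors, and 20.5 CPM in the third. The part of these cells in the members' differences was not tested.

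The partners of the oxidase outside the 9 were fixed as a list of 12, and 0 of them passed in all 6 tumors (edgeR, median log2 fold change 0.12). In the 5 tumors 2 of the 12 rose, against 2.46% of all genes, Rac2 among them. Rac2, the GTPase of blood cells that completes the active oxidase, was at 90.4, 109 and 92.6 CPM in the control tumors and 138, 141 and 75.1 CPM in the IFN-γ tumors. Its log2 difference was 0.28 over the 6 tumors (adjusted p = 0.725, edgeR) and 0.51 over the 5 (adjusted p = 0.0281, edgeR). IFN-γ tumor 3 was below every control. Rac1, the widely expressed relative, differed by 0.050 on the log2 scale over the 6 tumors and by -0.0015 over the 5.

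Other NADPH oxidases were scarce. Of 9 genes for the enzymes of other cells and their partners, 4 passed the filter and 0 passed the threshold in either fit. Nox1, the oxidase of colon epithelium, did not exceed 0.183 CPM, and Nox3 and Noxa1 had 0 counts in every tumor. Nox4 was at 3.56, 4.62 and 5.31 CPM in the control tumors and 4.12, 3.30 and 2.35 CPM in the IFN-γ tumors, with overlap. Of 11 enzymes that use or remove reactive oxygen and nitrogen species, 10 were tested and 0 passed in either fit, and the median log2 fold change over the 6 tumors was 0.051.

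Genes that act below the Fcγ receptors were a list of 26, all tested. In all 6 tumors 0 passed, although 23 of 26 had a log2 fold change above 0, as did 7623 of the 15114 genes tested (list median 0.23). In the 5 tumors 7 of the 26 rose, against 2.46% of all genes (list median 0.42). Among the 7 were the phospholipase Plcg2 (0.72), the phosphatase Ptpn6 (0.63), the adaptors Lat2 (0.61) and Tyrobp (0.68), the exchange factor Dock2 (0.58) and the actin regulator Was (0.59), on the log2 scale, with adjusted p between 0.0162 and 0.0451 (edgeR). Lat2 was the only 1 of these named genes whose 3 IFN-γ tumors were all above every control, at 26.5, 29.3 and 27.4 CPM against 42.9, 42.5 and 35.6 CPM. The kinase Syk, which binds the phosphorylated Fcer1g chain, differed by 0.12 over the 6 tumors and 0.31 over the 5 (edgeR, adjusted p = 0.126), on the log2 scale. The inositol phosphatase Inpp5d, through which Fcgr2b acts, had 0.26 and 0.42 (adjusted p = 0.0662, edgeR). IFN-γ tumor 3 had less Syk (40.6 CPM), Inpp5d (59.0 CPM) and Dock2 (42.1 CPM) than any control tumor.

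Receptors for other antibody classes and the Fc receptor-like genes were a list of 13, of which 7 were tested. Fcrls, a scavenger receptor-like member of the family, was lower in every IFN-γ tumor than in any control, at 73.4, 44.2 and 46.7 CPM in the control tumors and 22.0, 24.2 and 33.5 CPM in the IFN-γ tumors. It fell by 1.25 on the log2 scale in the 5 tumors (adjusted p = 0.0226, edgeR), where 0.723% of all genes were called lower, and its log2 fold change in all 6 was -1.04 (adjusted p = 0.219, edgeR). The ligands are read only through immunoglobulin transcripts in the tumor. Of 10 immunoglobulin genes listed, 9 were in the table and 0 passed in either fit. The gene not found was Ighg2a, so no value is given under that name. Ighg1 varied with 1 tumor, at 9.13, 0.733 and 1.14 CPM in the control tumors and 4.06, 1.22 and 0.989 CPM in the IFN-γ tumors, and the sign of its log2 fold change turned without control tumor 1, from -0.79 to 1.16.

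Transcription factors known to act on these promoters were a list of 10, of which 9 were tested and 0 passed in all 6 tumors (edgeR, median log2 fold change 0.35). In the 5 tumors 4 of the 9 rose, against 2.46% of all genes, with Cebpa, Irf1 and Spi1 among them. Cebpa, a myeloid factor, was at 14.3, 13.3 and 13.7 CPM in the control tumors and 26.0, 27.2 and 17.56 CPM in the IFN-γ tumors, with no overlap. The log2 difference of Cebpa was 0.78 over the 6 tumors (edgeR, adjusted p = 0.222) and 0.95 over the 5 (edgeR, adjusted p = 0.00964). That of Irf1 was 0.595 (edgeR, adjusted p = 0.401) and 0.80 (adjusted p = 0.0303, edgeR). That of Spi1 was 0.35 (edgeR, adjusted p = 0.494) and 0.50 (adjusted p = 0.0251, edgeR). IFN-γ tumor 3 lay within the control range for Irf1 (177 CPM, controls 140 to 211 CPM) and for Spi1 (44.1 CPM, controls 42.6 to 48.1 CPM). Irf8 had a log2 fold change of 0.66 over the 5 tumors and did not pass (adjusted p = 0.0891, edgeR).

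**Figure D5:**
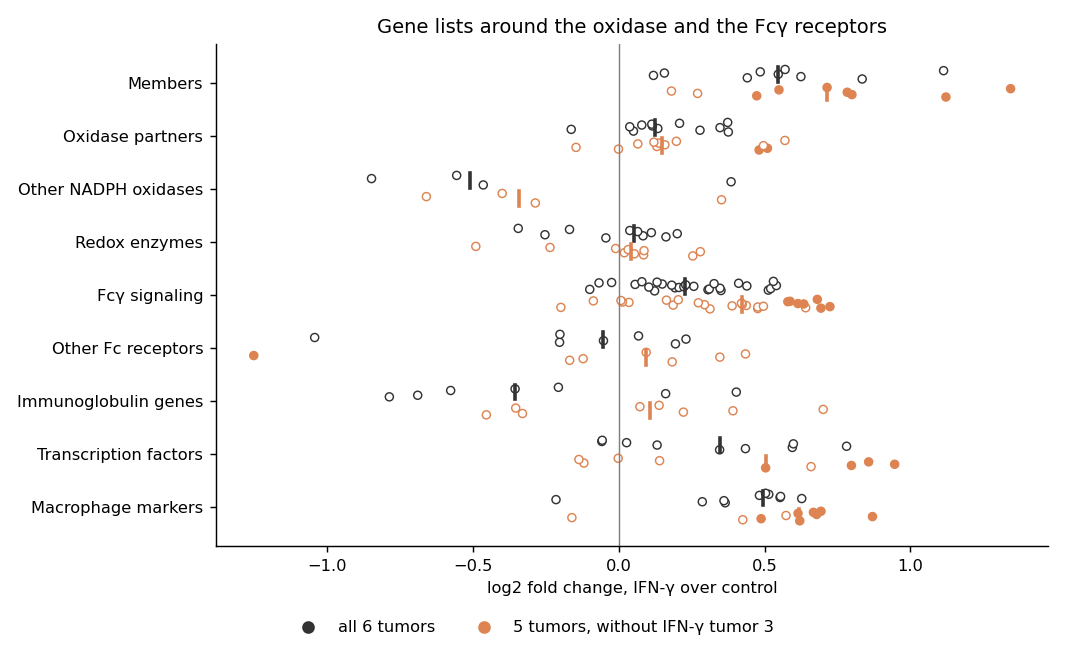
Log2 fold change, IFN-γ over control, of each gene tested in the members, the pathway lists and the macrophage markers, from all 6 tumors (dark) and from the 5 without IFN-γ tumor 3 (orange), where filled points passed the adjusted threshold in edgeR and a vertical bar marks each list's median. Filled points occur only in the 5 tumors, with 7 among the members, 7 in Fcγ signaling, 7 among the macrophage markers, 4 among the transcription factors, 2 among the oxidase partners and 1, below 0, in the other Fc receptors.

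The genes whose levels followed the members most closely across the 6 tumors were searched among 9990 genes outside the lists with a mean of at least 10 CPM. By Pearson correlation with the mean standardized log2 CPM of the 9 members, they were Serinc3 (0.999), Ctss (0.997), Anpep (0.997), Nampt (0.993) and Ifi204 (0.993). The correlation was above 0.9 for 406 of the 9990, a looser cut than the values of the genes named. Those genes were picked as the highest of the 9990 over only 6 tumors, and their correlations were not tested. Ctss, the lysosomal protease cathepsin S, was at 437 to 566 CPM in the control tumors, 943 and 1030 CPM in the first pair of IFN-γ tumors, and 592 CPM in the third. Anpep, a surface peptidase of myeloid and other cells, was at 25.9 to 34.3 CPM in the control tumors, 51.6 and 60.1 CPM in the first pair of IFN-γ tumors, and 35.9 CPM in the third. In both, as in most of the members, IFN-γ tumor 3 lay much nearer to the controls than to the other IFN-γ tumors.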

How the data were processed

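RNA sequencing counts of 6 tumors were analysed. The authors deposited raw read counts, 1 whole number per gene and tumor. The submitters' processing notes name HISAT2 and mm10. The version, the counting program, the annotation and the strandedness are not given in the sources used here, so reads of overlapping or near-identical genes may be counted on either. Of the identifiers, 99.5% were in GENCODE M21, which gave lengths and positions.

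The members and the gene lists were chosen with earlier results of these data known. Counts were tested with edgeR 4.0.16 (R 4.3.3), by the quasi-likelihood test with TMM factors and the package's default low-count filter, and p-values were adjusted over all genes tested (Benjamini-Hochberg), without and, as an alternative, with the replicate number as a block. The standard error was the log2 fold change divided by the square root of F. DESeq2 1.42.0, limma 3.58.1 (voom), other scalings and filters and fits without each tumor were the alternatives. Ratios used log2(CPM + 0.5), with pseudocounts of 0.1 and 2 as alternatives, and exact permutation tests (SciPy 1.17.1). RPKM was CPM per kilobase of merged exons. The scripts were tested on simulated data.

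Named genes were the 9 members, list genes past the threshold in all 6 or in the 5 tumors, 10 list genes fixed whatever their value, and the 5 genes most correlated with the members. Rac1, Nox3, Noxa1, Mrc1, Csf3r and single cell type markers were named after their values were seen. No 2 libraries looked like duplicates (log2 CPM correlations 0.974 to 0.989, smallest chi-square per gene 5.79). Replicate numbers were read as names without pairing. Every column of counts was used. The values of some list genes are not reported here.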

Additional observations from a re-analysis of the deposited data

How the results depend on the processing

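The number of members past the threshold depended on the fit. With all 6 tumors edgeR called 0 higher, DESeq2 called 3, and edgeR with no filter on low counts called 6, in a fit that called 150 of 26868 genes higher. Fits that each left out 1 tumor called 0 to 7, with 7 only without IFN-γ tumor 3. For the pathway lists the number higher was 0 of 74 tested, against 0.0794% of all genes. It was 2 of 85 by DESeq2, where 116 of 26857 genes were called higher, or 0.753% of those given an adjusted p. With no filter it was 3 of 85, against 0.558%. Without 1 tumor it was 0 to 13, with 13 of 75 only without IFN-γ tumor 3, against 2.46%. The number lower was 0, with 1 by DESeq2 and 1 with no filter, where 68 and 70 genes were called lower in all. Without 1 tumor it was 0 to 1, with 1 only without IFN-γ tumor 3, against 0.723% of all genes. Apart from the tumors left out, the cause was not tested. With the replicate number as a block, 0 members passed, and 5 genes were higher and 2 lower over all genes tested. In edgeR on all 6 tumors the block changed no call for a member or a named list gene. It was also run on the ratios, where no call could change, since their exact tests cannot reach 0.05 with or without it. The block was not run for the 5 tumors or for DESeq2. Deviations of equally numbered tumors correlated at -0.19, -0.015 and -0.21, so the numbers were not read as a pairing.
The sign turned for Ncf4 (-0.021 without IFN-γ tumor 2, up to 0.27), Syk (-0.0059 without IFN-γ tumor 1, up to 0.31) and Ighg1 (-1.71 to 1.16, the latter without control tumor 1). Over the macrophage markers, leaving out 1 tumor gave -0.076 to 0.15 for Cyba and -0.0091 to 0.20 for Fcgr3, and the range was 0.045 to 0.24 for Fcgr1. With Tyrobp as the base the differences were -0.069 for Cyba, -0.016 for Fcgr1 and -0.034 for Fcgr3. Of 429 comparisons of single genes with an adjusted p, 381 kept direction and side of the threshold and 45 passed only under the alternative. Adjusted p of the members ran from 0.00134 for Fcgr4 with no filter to 0.993 for Ncf4 without IFN-γ tumor 2.
Lengths of the longest coding transcript gave 177 RPKM for Cyba, 35.1 for Ncf4, 59.9 for Fcgr2b, 67.1 for Fcgr3 and 83.3 for Fcer1g as means over the 6 tumors, against 127, 25.4, 36.7, 52.1 and 65.1 RPKM with merged exons. Exact tests of 3 tumors against 3 cannot go below p = 0.1.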
